A study of Drosophila melanogaster with 2 samples.

Results

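The genes described here are kirre, rst, sns and hbs, 4 of 13945 protein-coding genes on the 6 main chromosome arms of Drosophila melanogaster. They were taken by name from the gene annotation. kirre was selected on its summit count, because its window, the gene body plus 5 kb on each side, held more binding summits of Sox102F-GFP than the window of any other gene, and rst, sns and hbs were added as its family and binding partners. The summit counts and signals below therefore describe the choice of kirre and are given with no test. The windows held 34 of the 7055 summits in the list called optimal by the depositors.

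Binding was mapped by chromatin immunoprecipitation and sequencing (ChIP-seq) in a transgenic fly line that stably carried Sox102F with GFP joined to its C terminus. There was 1 group of 2 samples, biological replicates 1 and 4, each made from whole white prepupae with males and females pooled. The age was labelled as unknown. The description in the labels names an antibody against GFP, whereas the antibody field names Sox102F. White prepupae mark the onset of metamorphosis, when larval tissues break down and adult tissues are built. Sox102F is the fly member of the SoxD family, whose proteins bind DNA through an HMG domain. In a whole animal, binding in more cells and stronger binding per cell cannot be told apart, and no untagged line was analysed here.

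The proteins of these genes are transmembrane adhesion molecules with immunoglobulin domains that bind each other between cells. Kirre (also called Duf) and Roughest act on muscle founder cells, and Sticks and stones (the product of sns) and Hibris act on the fusion-competent myoblasts that join them. The same pairs sort the cells between ommatidia in the pupal eye. In nephrocytes, the filtering cells of the fly, Sticks and stones and Kirre build a diaphragm like that of the vertebrate kidney, where their relatives are nephrin and Neph1.

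The 5 strongest kirre summits are shown to let their base composition be seen. Each line gives the 101 bases centred on the summit, on the plus strand of the Release 6 sequence (RefSeq), with dm6 coordinates. Capitals mark ACAAT or its reverse complement ATTGT, the core word bound by Sox proteins.
kirre summit 24, X:3053421-3053521: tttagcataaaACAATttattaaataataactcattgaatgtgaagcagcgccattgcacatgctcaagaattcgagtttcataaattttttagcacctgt
kirre summit 22, X:3046114-3046214: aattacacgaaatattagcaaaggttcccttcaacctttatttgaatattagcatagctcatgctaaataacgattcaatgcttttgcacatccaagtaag
kirre summit 17, X:3018801-3018901: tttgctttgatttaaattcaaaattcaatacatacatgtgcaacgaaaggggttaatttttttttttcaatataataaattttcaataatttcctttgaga
kirre summit 31, X:3097159-3097259: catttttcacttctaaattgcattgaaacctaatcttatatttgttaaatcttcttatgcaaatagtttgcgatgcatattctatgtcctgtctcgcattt
kirre summit 5, X:2787425-2787525: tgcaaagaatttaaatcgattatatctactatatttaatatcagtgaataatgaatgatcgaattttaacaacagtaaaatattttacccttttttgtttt

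The windows below hold the word in both orientations or in duplicate (summits 21 and 26) or lie in the window of rst (summits 13 and 12).
kirre summit 21, X:3041174-3041274: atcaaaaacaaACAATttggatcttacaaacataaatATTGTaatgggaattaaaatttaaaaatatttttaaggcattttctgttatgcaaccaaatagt
kirre summit 26, X:3055939-3056039: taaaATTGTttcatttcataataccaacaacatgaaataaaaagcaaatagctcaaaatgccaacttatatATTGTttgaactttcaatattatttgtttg
kirre summit 13, X:2978214-2978314: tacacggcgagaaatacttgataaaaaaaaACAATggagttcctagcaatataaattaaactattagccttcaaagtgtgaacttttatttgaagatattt
kirre summit 12, X:2964803-2964903: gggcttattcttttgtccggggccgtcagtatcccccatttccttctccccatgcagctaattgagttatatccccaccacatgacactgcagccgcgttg

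Of the 5 strongest windows, that of summit 24 held the word and the other 4 did not. The GC content of these 5 ran from 20.8% at summit 5 to 32.7% at summit 22. Summit 12, in the body of rst, was the most GC-rich of the kirre summits at 53.5%.

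Sox102F-GFP summits in kirre were many, and the gene is long. kirre (FBgn0028369, X:2740384-3134532, plus strand) spans 394 kb and has 7 annotated transcripts from 6 starts. Its window held 33 optimal summits, and 29 among the 7055 strongest entries of each replicate taken alone. Of those, 21 had a partner within 100 bp in the other replicate. Tet, a dioxygenase gene and the next in the order, had 31. The median protein-coding gene had 0 summits and 96 genes had 10 or more.

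Per length, kirre was above the mean and not extreme. The optimal list gave 0.817 summits per 10 kb of window, and each replicate alone gave 0.718 per 10 kb. The 6 arms together had 0.527 per 10 kb and the X had 0.561, so kirre stood at 1.55 times the mean of the arms. By density, kirre ranked 4290, and 30.8% of protein-coding genes were at or above it. Among the 108 genes with a window of 100 kb or more, kirre ranked 28 by density, and Tet led with 3.01 per 10 kb. These 108 genes had a median of 4 summits.

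The genes closest to kirre in window length had fewer listed summits. CG17684, DIP-lambda, lovit and bru3 had 0 optimal summits each, and Ten-a, a teneurin adhesion gene on the X, had 9 at 0.298 per 10 kb. Entries of any strength in the pooled list, which includes background, numbered 141 in the kirre window, 67 in that of Ten-a and 22 in that of bru3. The pooled list had 1 entry for CG17684 and 0 for DIP-lambda and lovit. Whether reads could be placed in these 3 genes was not tested, so their counts of 0 do not show an absence of binding. The genes that followed kirre by count were shorter and denser. After Tet came sbb, a nuclear corepressor gene, with 30 summits at 3.37 per 10 kb, and Eip75B, an ecdysone-induced nuclear receptor gene, with 26 at 2.10 per 10 kb. Mnt, a Max-partner repressor gene, had 24 at 6.02 per 10 kb, and ush, a GATA cofactor gene, had 20 at 2.69 per 10 kb. The count of ush was shared by psq, with 20 at 2.88 per 10 kb, and psq came after ush by its weaker strongest summit.

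**Figure D1:**
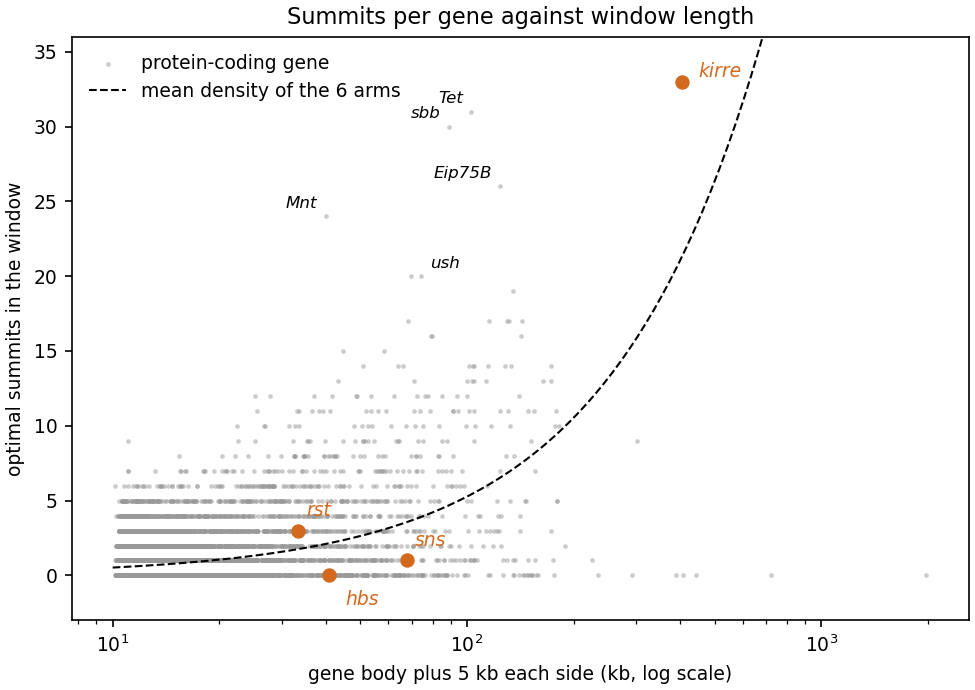
Optimal summits per protein-coding gene against the length of the gene body plus 5 kb each side (kb, log scale), with 1 grey point per gene and the 4 adhesion genes in orange. The dashed curve is the mean density of the 6 arms, 0.527 per 10 kb. kirre lies at 33 summits in 404 kb, above the curve, while sns and hbs lie below it.

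Of the 4 genes, 3 had an optimal summit in their window, where 43.9% of protein-coding genes did. With the strongest entries of replicate 1 alone, kirre and rst had one, against 49.2% of protein-coding genes. With those of replicate 4 alone, kirre, rst and sns had one, against 43.2%. The 4 genes were chosen with kirre's count in view, so nothing is read from these shares.

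The kirre summits were densest in a stretch between internal starts. The edges of the stretches compared here were set at annotated starts, and the first summit of the dense one, summit 15, lay 21102 bp past its start. From the start at 248.667 kb to the next start at 359.166 kb, 110 kb held 17 summits, 1.54 per 10 kb. Replicate 1 alone gave 17 there and replicate 4 alone gave 15. The 249 kb before that start held 14 summits, 0.563 per 10 kb, near the density of the X, with 11 in replicate 1 and 12 in replicate 4. The 29.1 kb after the start at 359.166 kb held 0 in all 3 counts. In the transcript FBtr0309501 the dense stretch is nearly all intron 5, 118 kb long, which held 17 summits, while intron 2 held 8 in 122 kb and intron 3 held 6 in 132 kb.

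The densest 50 kb began 270 kb from the first start of kirre and held 13 summits, 11 in replicate 1 and 10 in replicate 4. This is the highest value among the kirre summits, and their median number in the 50 kb that begin at a summit was 5. Over all optimal summits that median was also 5 and the highest was 27, and 6.25% of such windows had 13 or more. Neighbouring kirre summits lay a median of 5864 bp apart, against 4789 bp on the X. The widest gap in kirre was 70.9 kb, between summits 7 and 8.

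**Figure D2:**
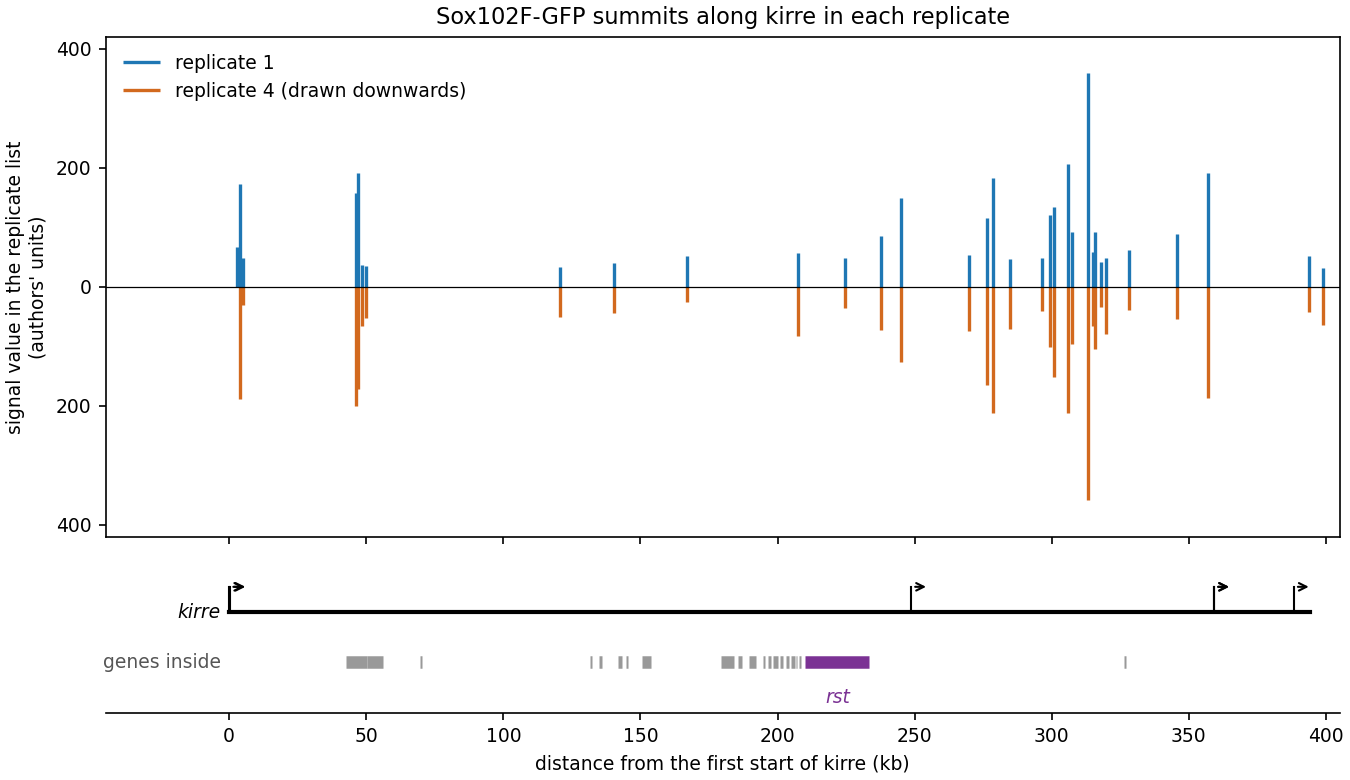
Signal value of each kirre summit in replicate 1 (blue, upwards) and replicate 4 (orange, downwards) against distance from the first start of kirre (kb), in the authors' units. Arrows mark the starts of kirre and boxes the genes inside it, with rst in purple. The highest lines of both replicates, 359.5 and 358.5, stand at 313 kb, and 17 summits lie between the starts at 248.667 and 359.166 kb.

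The strongest kirre summit had nearly equal values in the 2 replicates, and some of the next strongest differed more. Signal is the depositors' own value for each peak, used here for ranking and description, and no read counts lie behind it in the lists. Summit 24, 313 kb into the gene, had a signal of 722, the 195th highest of the optimal list, with 359.5 in replicate 1 and 358.5 in replicate 4. Summit 22, at 306 kb, had 422, with 207 in replicate 1 and 212 in replicate 4. Summit 17, at 278 kb, had 396, with 183 and 212 in the same order. Replicate 4 was higher at both.

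Summit 31, 2341 bp upstream of the start at 359.166 kb, had 379, with 191 in replicate 1 and 187 in replicate 4. Summit 5 had 365, with 192 and 172. Summit 2 had 359, with 173 and 189. Summit 4 had 351, with 158 and 201. Among the 10 strongest kirre summits, the replicates differed most at summit 16. It had 281, with 116 in replicate 1 and 164 in replicate 4, a log2 ratio of 0.50. Summits 2, 4 and 5 lie in the first 50 kb of the gene and are the strongest outside the dense stretch.

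Over all 33 kirre summits, signal ran from 76.7 to 722 with a median of 130.4, close to the 135 of the whole optimal list. Of the 33, 10 were among the strongest 1763 optimal summits. An entry lay within 100 bp in both replicate lists for 32 of 33 (97.0%), where 91.5% of optimal summits had both. The exception was summit 1, with 67.4 in replicate 1 and no replicate 4 entry within 100 bp. Replicate 1 values ran from 32.0 to 359.5 with a median of 61.7, and replicate 4 values from 24.9 to 358.5 with a median of 73.3. Replicate 4 was higher at 18 summits and replicate 1 at 14, and the median log2 ratio of replicate 4 to replicate 1 was 0.09, against 0.04 over all optimal summits.

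The kirre summits at which the replicates differed most were weak ones. Across the 32 kirre summits the Spearman correlation of the replicates was 0.81, against 0.73 over all optimal summits, as a description of peaks that share their libraries. The ratio was lowest at summit 10, with 50.9 in replicate 1 and 24.9 in replicate 4, a log2 ratio of -1.03. It was highest at summit 33, with 32.0 in replicate 1 and 65.0 in replicate 4, a log2 ratio of 1.02. Summit 10 is also the weakest entry of the whole optimal list, rank 7055, with a signal of 76.7. The kirre entry just below the limit of the list had 76.4 in the pooled list, rank 7079, with 42.6 in replicate 1 and 12.8 in replicate 4.

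**Figure D3:**
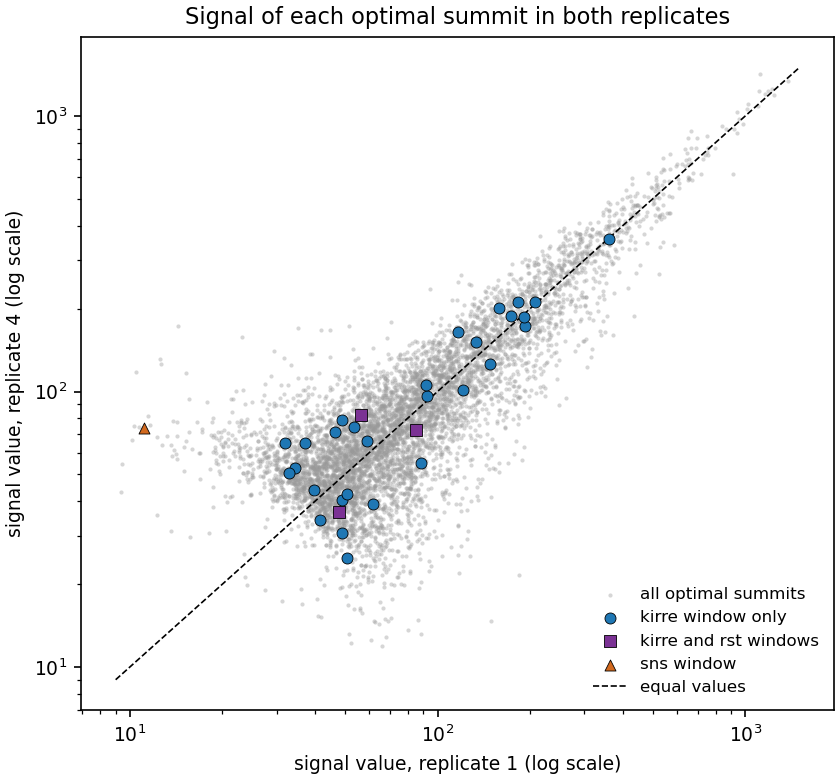
Signal value in replicate 4 against replicate 1 for each optimal summit with an entry in both lists (log scales, authors' units), with kirre in blue, the summits shared by kirre and rst in purple and sns in orange. The line marks equal values. The kirre points spread along the line up to 359.5 and 358.5, and sns lies far from it at 11.1 and 73.9. The 11.1 is the nearest replicate 1 entry, and a stronger one that overlaps the sns peak had 37.3.

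No summit lay at a start of kirre. Of the 33, 0 were within 1 kb of any of its 6 starts, and the nearest was 2341 bp away. Weaker pooled entries lay within 1 kb of some starts. The strongest had 40.5 at the start at 248.667 kb, 33.2 at the starts near 359 kb and 29.3 at the start at 388.255 kb, all under the limit of 76.7. The starts at 0 and 0.421 kb had no entry within 1 kb in the pooled list or in either replicate.

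Most kirre summits lay in introns, as does most of the window. The introns of FBtr0309501 alone make up 95.9% of it, so a high share in introns and 0 summits between genes follow largely from the window itself. By class, 28 of 33 (84.8%, exact Clopper-Pearson 95% interval 68.1 to 94.9%) were in introns and 5 (15.2%, 5.11 to 31.9%) were within 500 bp of a start of another gene. Over all optimal summits the shares were 43.2% in introns, 36.4% at starts and 17.8% between genes. The intervals cover counting only, and summits of 1 gene are not independent replicates. Of the 33, 14 (42.4%) had a peak narrower than 430 bp, the commonest width, where 29.2% of all optimal peaks did.

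Many other genes lie inside kirre, and some of the summits sit at them. The body of kirre holds 21 protein-coding genes and 1 non-coding gene. Of the 33 summits, 7 were inside the body of another gene, 7 were within 1 kb of a start of another gene, and 22 were neither. Summits 1 and 2 lie 334 and 169 bp upstream of starts of Syx4, a syntaxin gene that overlaps the beginning of kirre on the opposite strand, and the stronger, summit 2, had 359. Summits 4 to 7 lie in the body of CG32795, and summits 6 and 7 are 559 and 267 bp downstream of starts of that gene. White (w), the eye pigment transporter gene next to CG32795, had 0 in its body and 4 in its window, which are the same summits 4 to 7.

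Further along, summit 11 lies 293 bp upstream of CG3603 and 647 bp from the start of CG17959, and summit 29 lies 970 bp upstream of CG4116. CG12498, CG14416, CG3526, CG3588, CG14424, CG32793, CG3592, CG3598, CG14420 and CG14421 had 0 summits in their windows. CG14417, CG14418 and CG14419 had 1 summit in their windows, as did CG14422 and CG14423, and none of these 5 had one in the gene body.

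The far end of kirre lies beside N, which encodes the Notch receptor. Summit 32, with 85.5 and replicate values of 51.0 and 42.4, lies 487 bp upstream of a start of N and in the last exon of kirre. Summit 33, with 95.1, lies inside N, 4402 bp from a start.

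The Sox core word was about as common at kirre summits as elsewhere. ACAAT or ATTGT lay within 50 bp of the summit at 10 of 33 (30.3%, exact interval 15.6 to 48.7%), where 29% of all optimal summits had it. In windows of the same size 500 bp away, the kirre shares were 33.3% towards lower coordinates and 15.2% towards higher ones, and over all optimal summits they were 25.1 and 24.8%. The 13 words in kirre windows lay a median of 28 bp from the summit, against 24 bp over all optimal summits. Of the 13, 0 lay within 10 bp of the summit, against 530 of 2511 (21.1%) over all optimal summits.

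The longer word AACAAT, in which ACAAT is contained, was at 8 kirre summits (24.2%), where 12.7% of all optimal summits had it, and both are shares at the summit on either strand. In windows 500 bp away the kirre shares were uneven, 15.2% towards lower coordinates and 0% towards higher ones. Over all optimal summits they were 10.7 and 10.9%. The 8 are summits 4, 6, 13, 19, 21, 24, 26 and 29. ACAAAG was at 2 (6.06%, against 8.11%) and AACAAAG at 1 (3.03%, against 3.60%), the latter being summit 33. The E-box CANNTG was at 12 (36.4%, against 34.8%). GAGAG was at 1 (3.03%, against 14.2%), summit 6. A match is a stretch of letters and not a measured contact.

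Kirre summits were poor in G and C relative to their surroundings. The median GC content of the 101 bases was 30.7%, against 33.7% over all optimal summits, while windows 500 bp away had 42.6 and 43.6% in both sets. At the 10 strongest kirre summits the median was 26.2%, and at the other 23 it was 33.7%. In the whole list the strongest 1763 summits had 30.7% and the others 35.6%.

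**Figure D4:**
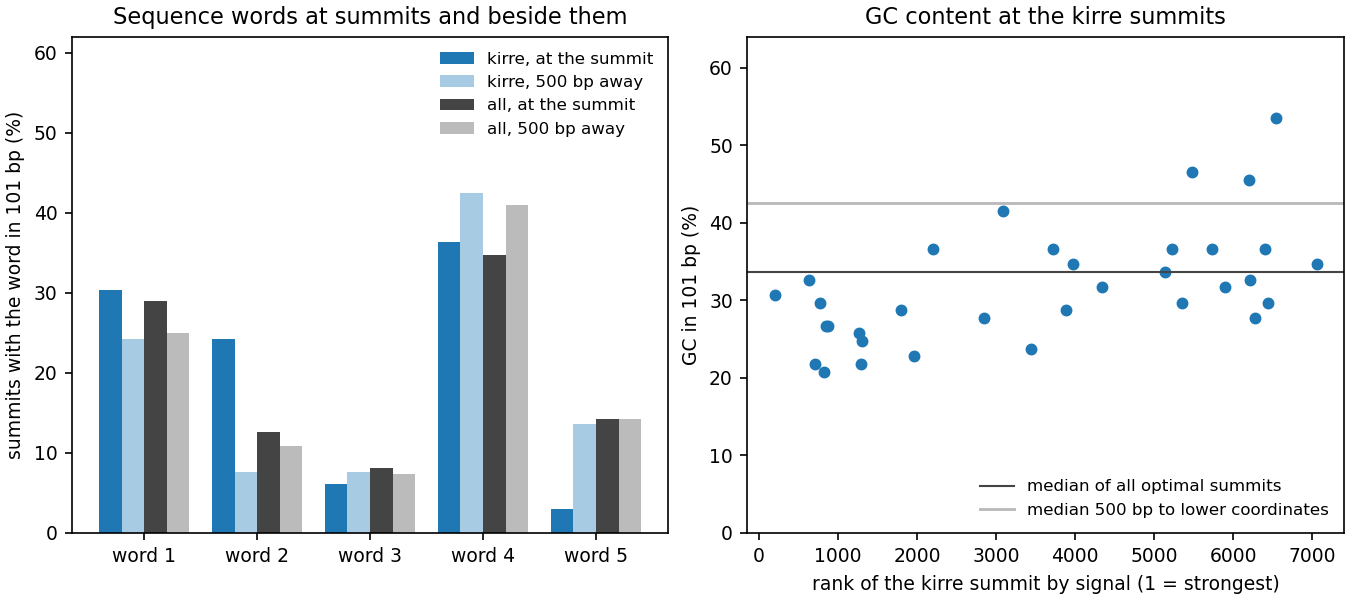
Left, share of summits (%) with a word within 50 bp of the summit or in windows 500 bp away (both sides averaged), for kirre (blue) and all optimal summits (grey), where word 1 is the core ACAAT, word 2 is the longer AACAAT, word 3 is the variant ACAAAG, word 4 is the E-box CANNTG and word 5 is GAGAG. Right, GC content (%) of the 101 bases at each kirre summit against its rank by signal, with lines at the medians of all optimal summits, 33.7%, and of windows 500 bp away, 42.6%.

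rst lies inside kirre on the opposite strand, and the summits in its window also lie in the kirre window. rst (FBgn0003285, X:2950399-2973834, minus strand) has a window with 3 optimal summits, 0.897 per 10 kb, and these are kirre summits 11, 12 and 13, so they belong to neither gene alone. Replicate 1 alone gave 4 and replicate 4 gave 3. Summit 13, 4430 bp upstream of the start of rst, had 159, with 85.0 in replicate 1 and 72.2 in replicate 4. Summit 12, 8981 bp into the gene, had 81.7, with 47.9 and 36.5. Summit 11, beyond the end of rst, had 138, with 56.3 and 82.4.

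The values put replicate 1 above replicate 4 at summits 12 and 13 and below it at summit 11. At the start of rst itself the strongest pooled entry had 43.4, with 31.7 in replicate 1 and 23.8 in replicate 4, under the limit. The strongest rst entry below the limit had 72.5, 1899 bp into the gene, with 43.1 and 30.0. Genes with a window like that of rst included Usp10, with 3 summits, CG32137, with 3, and the cadherin gene ft, with 5. Myo28B1 and Dhc1 had 0.

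sns is the only gene of the 4 with an optimal summit at its own start. sns (FBgn0024189, 2R:8798489-8856091, plus strand) had 1 summit, 121 bp upstream of its start, with a signal of 110, rank 4626. The replicates disagreed there. Replicate 4 had 73.9, rank 3282 in its list, and the nearest entry of replicate 1 had 11.1. A stronger replicate 1 entry that overlaps the peak, 258 bp upstream of the start, had 37.3, rank 7918, outside the 7055 strongest of that list. Replicate 1 alone therefore gave 0 summits for sns, and replicate 4 gave 2.

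A summit within 1 kb of a start was found for 20.3% of protein-coding genes, and for 1 of the 4 here. The second sns entry of replicate 4 lay 20.5 kb into the gene, with 44.7 there, 27.0 in replicate 1 and 73.7 in the pooled list, under the limit. The other 8 pooled entries in the sns window had at most 44.1. At 0.148 per 10 kb, the density of sns was 0.281 times the mean of the arms. Genes of like window length ranged from 0 summits in rdo to 10 in the LIM-only gene Bx, with 2 in the FGF gene ths, 6 in GEFmeso and 3 in axo.

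hbs had no optimal summit, with weaker entries in both replicates. hbs (FBgn0287864, 2R:15011396-15042134, plus strand) had 0 among the optimal summits and 0 among the strongest entries of either replicate. Its window held 16 pooled entries, and the strongest, 34.9 kb from the start and beyond the end of the gene, had 69.1, with 29.5 in replicate 1 and 35.9 in replicate 4. The entry at its start, 6 bp from it, had 66.0, with 31.3 in replicate 1 and 29.1 in replicate 4. These 2 entries ranked 7884 and 8229 in the pooled list, and the optimal list ends at rank 7055.

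The replicates were nearly equal at the hbs start, unlike at the sns start. Genes of like window length had 0 to 3 summits, with 1 in the immunoglobulin-domain gene Dscam2 and in CG30158, 3 in raw and in the FGF adaptor gene stumps, and 0 in PMCA. All of hbs, sns and rst had lower maxima than kirre, at 69.1, 110 and 159 against 722 in the pooled list. These maxima were taken over unlike numbers, 16, 10 and 19 pooled entries against 141, and the 159 is kirre summit 13. Per 10 kb of window, pooled entries of any strength numbered 3.93 in hbs, 1.48 in sns, 5.68 in rst and 3.49 in kirre.

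**Figure D5:**
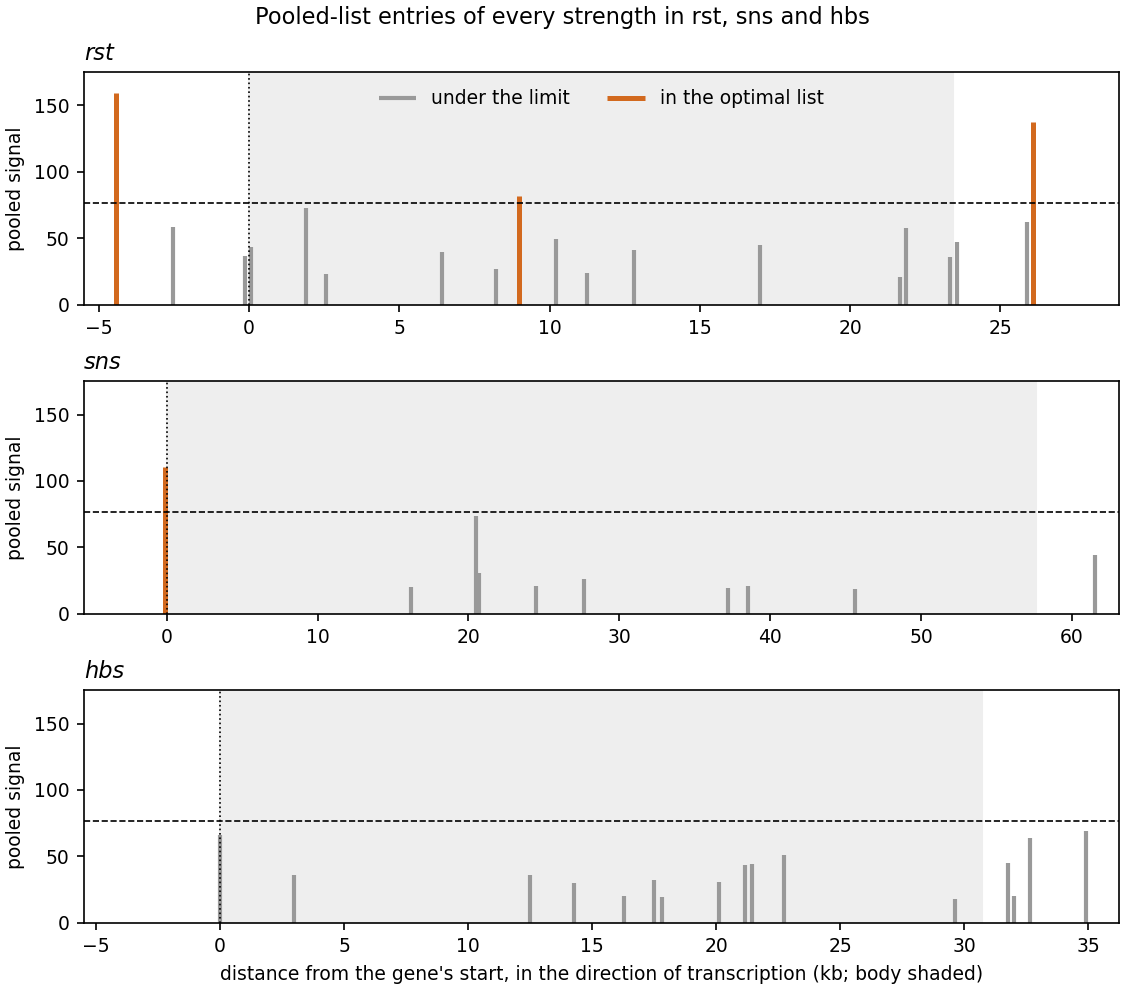
Signal of every pooled-list entry in the windows of rst, sns and hbs against distance from the gene's start in the direction of transcription (kb), with optimal entries in orange, weaker ones in grey and the gene body shaded. The dashed line is the limit of the optimal list, 76.7. rst has 3 entries above it, sns 1 at its start and hbs 0, with 66.0 at the hbs start.

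Genes of related biology were counted from lists written by function. Of 18 genes listed as myoblast fusion machinery, 9 (50%) had an optimal summit in their window, where 43.9% of protein-coding genes did. This list also holds the regulators twi and Mef2. Replicate 1 alone gave 12 genes, against 49.2% of protein-coding genes, and replicate 4 alone gave 11, against 43.2%. Near a start the count was 6 of 18 (33.3%), where 20.3% of protein-coding genes had one. The genes with the most were twi and siz, with 9 each, Mef2 with 6 and rols with 5. Rols is the adaptor that Kirre recruits in founder cells, and its strongest summit, in an intron, had 413, with 212 in replicate 1 and 198 in replicate 4.

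Mef2, the transcription factor gene of muscle differentiation, had the strongest summit of this list, at 1426, with 663 in replicate 1 and 765 in replicate 4. That summit lies beyond the upstream end of the gene, within 500 bp of a start of another gene. For siz, which encodes an exchange factor for Arf proteins downstream of Kirre, the strongest summit in the window had 240.4, with 149 and 95.0, and lies outside the gene body, within 500 bp of a start of another gene. In twi, a mesoderm regulator, it had 294, with 124 and 172.

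Of 6 genes that work with these proteins in nephrocytes or the eye, 5 had a summit in their window, with 5 in replicate 1 and 3 in replicate 4, and 3 had one near a start. The shares of all protein-coding genes were 43.9% for the optimal list, 49.2% for replicate 1, 43.2% for replicate 4 and 20.3% near a start. pyd, the fly relative of the junction protein ZO-1, had 14 summits, led by 614 with 282 in replicate 1 and 329.6 in replicate 4. cindr, a relative of CD2AP, had 7, led by 261 with 116 and 143. The endocytic receptor genes of nephrocytes had fewer, Cubn with 2 and Amnionless with 1. The highest value in the Cubn window was 410.2, with 209.9 and 198. The summit in the Amnionless window had 314, with 174 in replicate 1 and no replicate 4 entry within 100 bp. Both of these lie outside the gene bodies, within 500 bp of a start of another gene.

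Of 69 other immunoglobulin-superfamily adhesion genes, 26 (37.7%) had a summit in their window, with 26 in replicate 1 and 27 in replicate 4, and 7 (10.1%) had one near a start. The shares of all protein-coding genes were 43.9% for the optimal list, 49.2% for replicate 1, 43.2% for replicate 4 and 20.3% near a start. The median window of this list was 46.7 kb. ed had 11 summits and Fas3 had 8, followed by Fas2 with 5 and Nrg with 4. These encode the homophilic adhesion proteins Echinoid, Fasciclin 3, Fasciclin 2 and Neuroglian. The Nrg count was 1 with replicate 1 alone and 5 with replicate 4 alone. The median number of summits per gene was 0 in this list, as over all protein-coding genes, 0.5 in the fusion list and 1.5 in the nephrocyte and eye list.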

How the data were processed

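ChIP-seq peak lists of 2 biological replicates (1 and 4) and their pool were used as deposited, on dm6. Each replicate list and the pooled list hold 30000 entries, background included, and the optimal list 7055, which are the pooled entries at or above a signal of 76.7. The signal is a value per peak deposited by the authors, and the −log10 q-value in the deposited lists was not used for ranking. The deposited summit offset, another value from the authors, gave each summit's position. The depositors' name for the optimal list calls it thresholded by IDR (irreproducible discovery rate), a measure of how reproducible peaks are. How far that choice set the replicate agreement of its summits was not tested. For the aligner, the peak caller and the value of that threshold, nothing was stated in the labels or headers read. The depth of either library is unknown, as the lists give no reads.

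Summits were counted in the gene body plus 5 kb each side (Ensembl release 115, BDGP6.54, transposable elements left out). Replicate values came from the nearest entry within 100 bp. Classes were assigned in fixed order, with starts within 500 bp placed before exons and introns. Words were searched on both strands of the Release 6 sequence within 50 bp of each summit. Of 19 fusion genes written, Arf51F was not matched.

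Named genes were the 4 adhesion genes, the 5 with the most summits after kirre (ties by strongest signal), the 5 nearest to each of the 4 in window length, the 4 with the most summits in each list, genes with a start within 1 kb of a summit, and genes inside the 4 bodies. The genes and lists were chosen with earlier results of these data known. Python 3.11.15, pandas 2.3.3, NumPy 2.4.6, SciPy 1.17.1 and matplotlib 3.10.9 were used. The functions were tested on simulated data. Alternatives covered flanks, the stronger peaks, each replicate alone, match distance, start windows and words.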

Additional observations from a re-analysis of the deposited data

How the results depend on the processing

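Of 84 alternative values, 65 kept within the replicate spread, the counting interval or 1.5 times the main count. Some had little or no room to move, so 65 does not measure stability. At the sns start the spread, 44.4, came from the disagreeing replicates, and 37.3 in place of 11.1 counted as kept. Leaving out summits closer than 200 bp could not change kirre, whose smallest gap was 693 bp. Other words were judged by the interval of ACAAT. For kirre, the count fell from 33 to 16 in the stronger 3527 peaks and to 21 where both replicates' strongest entries shared the summit. With either replicate left out it was 29. rst had 1 with no flank. sns had 0 with no flank, in the stronger peaks and where both replicates shared the summit, and leaving out a replicate gave 0 to 2, with 0 from replicate 1 alone and 2 from replicate 4 alone. hbs had 1 with a flank of 10 kb. The share of kirre summits near a start was 3.03% with a 250 bp window. The share with the word was 15.2% within 25 bp (15.8% over all optimal summits), 6.06% for ACAAAG (8.11%) and 3.03% for AACAAAG (3.60%). The nephrocyte and eye list had 3 genes within 1 kb of a start, 2 with no flank and 3 to 5 with a replicate left out, 3 being from replicate 4 alone. The immunoglobulin list had 7 within 1 kb of a start, 14 with no flank and 17 in the stronger peaks. The causes were not tested.

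Within 50 bp, sns had no replicate 1 entry, so that setting gave no value, and the strongest overlapping entry gave 37.3. No paired analysis was possible because there was 1 group. With 2 replicates, peak lists without read counts and no untagged line analysed here, a weak summit such as that of sns rests on the replicates' own values alone. A summit inside kirre cannot be assigned to kirre, rst or another gene from these data.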

Other observations

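The protein-coding genes inside sns and hbs, which the counts above did not cover, had no optimal summit in their windows. These are CG30350 in sns and CG43101 and Obp51a, an odorant-binding protein gene, in hbs. The non-coding genes inside kirre and hbs, lncRNA:CR43494 and lncRNA:CR45256, had 0 as well.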
